A study of Mus musculus with 16 samples.

Results

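The genes described here are the cytosolic aminoacyl-tRNA synthetases and the amino acid response genes that the transcription factor ATF4 is known to control. They were named as a list of 36 symbols, 20 synthetases and 16 response genes, with no threshold on a measured value. Each was read from the probe set that the platform annotation ties to that symbol alone, with the highest mean where there was more than 1. That gave 34 of the 36, made of 18 synthetases and 16 response genes, out of 19272 genes with such a probe set. All 34 passed the filter on low values, as did 10236 genes in all. Aars and Dars were not analysed here. The study hybridised RNA of 4 groups of cultures to 16 arrays (Affymetrix Mouse Gene 1.0 ST), 4 per group. Bone marrow of C57BL/6 mice was cultured with GM-CSF at 10 ng/mL to give dendritic cells, and in the high-salt cultures NaCl was added from day 3 to bring the medium to 450 mOsm/L in place of 290 mOsm/L. On day 7 the cells were plated for another 6 hours with or without the bacterial product lipopolysaccharide (LPS) at 10 ng/mL. The groups are 450 mOsm with LPS, 290 mOsm with LPS, 450 mOsm without LPS and 290 mOsm without LPS, and the same 4 mouse numbers appear in each. The animals' age and sex are not used here.

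A synthetase joins an amino acid to its tRNA and so supplies translation. Class I and class II enzymes differ in the fold of their catalytic domain, and several of them sit in 1 large complex. When uncharged tRNA accumulates, the kinase GCN2 phosphorylates the initiation factor eIF2, as PERK does under endoplasmic reticulum stress, PKR after double-stranded RNA and HRI in haem shortage. Phosphorylated eIF2 lowers general translation and raises that of Atf4, so the ATF4 protein is set largely at translation, which arrays do not measure. ATF4 then raises transcription of synthetases, amino acid transporters, enzymes of serine, one-carbon and asparagine synthesis, and stress effectors such as Ddit3 and Trib3. It binds DNA at the C/EBP-ATF response element with partners of the C/EBP family.

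The core of that element, TGATGNAA read on either strand (TTNCATCA on the reverse), was searched in RefSeq promoters of build GRCm38.p6, from 250 bases before to 50 bases after each gene's start. Of the 34 genes, 26 had a promoter there. The core was found in 7 of these 26 genes (26.9%), which were Asns, Chac1, Gars, Iars, Tars, Trib3 and Yars, against 4.51% of all 27025 genes and 3.97% of all 32851 promoters. The cyclic AMP response element TGACGTCA was found in 1 of the 26 (3.85%), Ppp1r15a, against 2.03% of all genes. A match is a description of the letters, not of binding. The 5 windows below, of the genes with the core whose salt response differed most by size with and without LPS, are shown so that its position and flanks can be compared. Each is 30 bases long, from the gene's own strand, with the core in capitals.
Trib3 (chr2:152344028-152344057, minus strand, core 15 to 22 bases after the start): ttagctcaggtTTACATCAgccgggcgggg
Asns (chr6:7693214-7693243, minus strand, core 23 to 16 bases before the start): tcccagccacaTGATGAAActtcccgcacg
Gars (chr6:55037960-55037989, plus strand, core 30 to 23 bases before the start): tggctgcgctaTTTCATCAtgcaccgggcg
Iars (chr13:49682126-49682155, plus strand, core 8 to 15 bases after the start): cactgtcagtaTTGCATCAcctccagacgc
Tars (chr15:11399655-11399684, minus strand, core 15 to 8 bases before the start): caggagtcccgTTGCATCAgctggttagct
The core of Asns reads forward and the other 4 read as the reverse. Iars and Tars carry the same letters, with LPS changes of different sizes given below.

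Levels below are log2 expression values, and a difference of 1 is a doubling. Differences come from limma, with 1 mean per group fitted over all 16 arrays, and p-values were adjusted by Benjamini-Hochberg over the 10236 genes. A gene is said to have risen or fallen where that adjusted p was under 0.05. Array medians lay between 6.78 and 6.93. Of the dendritic cell markers, 11 of the 13 measured passed the filter, Xcr1 and Cd209a did not, and the list's mean level per array was 10.01 to 10.07 at 450 mOsm with LPS, 9.97 to 10.08 at 290 mOsm with LPS, 9.76 to 9.87 at 450 mOsm and 9.66 to 9.72 at 290 mOsm. The cultures also held RNA of neutrophil genes, which moved with salt. The mean over the 16 neutrophil markers was 7.66 to 7.87 at 450 mOsm with LPS and 9.74 to 10.14 at 290 mOsm with LPS, and 6.97 to 7.09 at 450 mOsm against 9.59 to 10.09 at 290 mOsm without LPS. Of these markers 13 fell with salt in LPS-treated cells and 15 fell without LPS, with the widest change in Ngp (-5.49 and -6.03). Mast cell and basophil markers, 6 of 10 past the filter, rose in 1 and fell in 3 cases with salt in LPS-treated cells and fell in all 6 without LPS, with the widest change in Mcpt8 (-2.75 and -2.03). Their mean level per array was 6.27 to 6.37 at 450 mOsm with LPS and 7.00 to 7.58 at 290 mOsm with LPS, and 5.74 to 5.86 at 450 mOsm against 6.45 to 7.02 at 290 mOsm without LPS, and Mcpt4, Fcer1a, Ms4a2 and Tpsab1 were below the filter. Macrophage markers, 12 of 13 measured past the filter, fell in 7 cases and rose in 1 with LPS, and fell in 6 and rose in 2 without, led by Marco (-1.33 and -1.10), and Cd163 was below the filter. The macrophage mean level per array was 10.87 to 10.96 at 450 mOsm with LPS and 11.17 to 11.20 at 290 mOsm with LPS, and 10.69 to 10.82 at 450 mOsm against 10.89 to 10.96 at 290 mOsm without LPS. Dendritic cell markers rose in 2 and fell in 2 of 11 cases with LPS, led by Flt3 (-1.02), and rose in 2 and fell in 1 without LPS, led by Ciita (0.84). Beside these marker counts, salt raised 16.8% and lowered 21.8% of all genes tested with LPS, and raised 20.6% and lowered 23.7% without. Of the lymphocyte markers, 2 of 6 measured passed the filter, and their widest salt changes, Cd79b at -0.18 with LPS and Cd3e at 0.19 without, missed the threshold. In bulk RNA, fewer cells of a type and less RNA per cell cannot be told apart. The part of these cells in the salt differences below was not tested.

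The widest differences among the synthetases came with LPS. At 450 mOsm 15 of the 18 fell and 3 rose, and at 290 mOsm 14 fell and 3 rose. The median synthetase changed by -0.52 at 450 mOsm and -0.43 at 290 mOsm on the log2 scale, beside -0.09 and -0.11 over all genes tested. All 34 genes together gave 9 risen and 19 fallen at 450 mOsm, where 26.4% of all genes rose and 45.3% fell, and 8 risen and 17 fallen at 290 mOsm, where 26.4% rose and 47.1% fell. A fall with LPS was common among all genes tested. Neutrophil markers rose with LPS in 9 of 16 cases and fell in 2 at 450 mOsm, and rose in 6 and fell in 2 at 290 mOsm. Mast cell and basophil markers rose in 2 of 6 cases at 450 mOsm, and rose in 5 and fell in 1 at 290 mOsm. Macrophage markers rose in 6 and fell in 6 of 12 cases at 450 mOsm, and rose in 5 and fell in 6 at 290 mOsm, and dendritic cell markers rose in 3 and fell in 5 of 11 at 450 mOsm, and rose in 4 and fell in 4 at 290 mOsm. The part of these cells in the LPS differences was not tested. The 16 response genes split more evenly, with 6 risen and 4 fallen at 450 mOsm and 5 risen and 3 fallen at 290 mOsm.

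**Figure D1:**
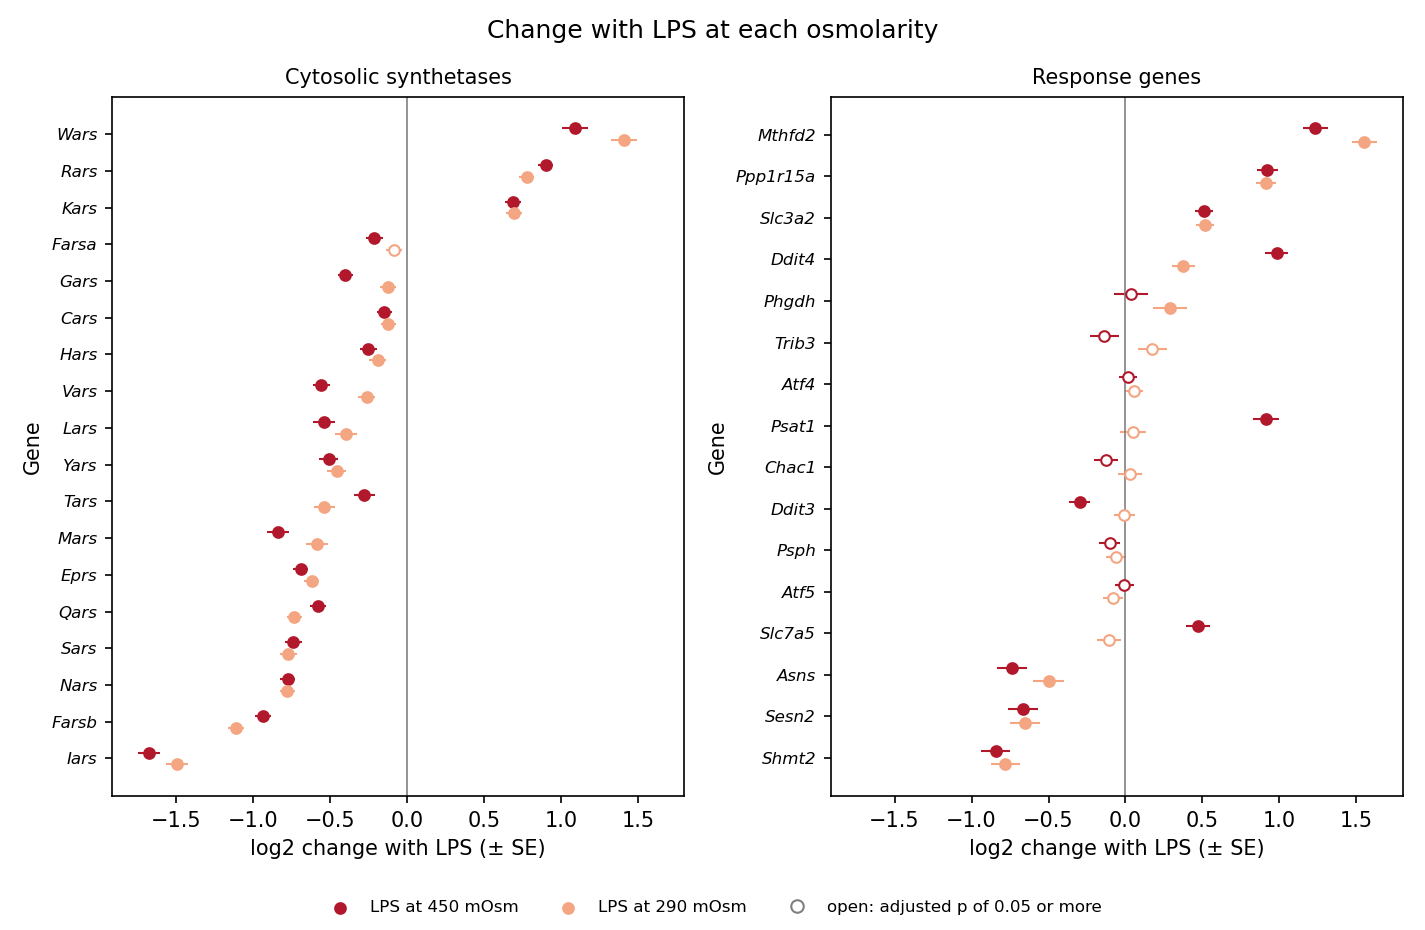
log2 change with LPS (x axis) for each gene (y axis), at 450 mOsm (dark points) and 290 mOsm (light points), with the cytosolic synthetases on the left and the response genes on the right. Bars are standard errors and open points have an adjusted p of 0.05 or more. Wars, Rars and Kars lie right of 0 and the other 15 synthetases lie left of it.

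Iars, which charges isoleucine tRNA, had the widest fall. Its level was 8.49, 8.59, 8.68 and 8.57 with LPS at 450 mOsm, against 10.32, 10.26, 10.25 and 10.20 without LPS. At 290 mOsm it was 8.65, 8.66, 8.94 and 8.95 with LPS, against 10.17, 10.35, 10.31 and 10.36 without. The arrays with LPS all lay more than 1 log2 unit below those without, and the groups did not overlap. The change was -1.68 ± 0.07 (SE, adjusted p = 2.87e-13), a 3.19-fold fall, at 450 mOsm, and -1.49 ± 0.07 (adjusted p = 1.55e-12), a 2.81-fold fall, at 290 mOsm. Iars was the 1 gene of the list with a second probe set, which gave -1.66 and -1.40.

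Farsb, the beta subunit of phenylalanyl-tRNA synthetase, stood at 7.32, 7.42, 7.43 and 7.36 with LPS at 450 mOsm, against 8.32, 8.24, 8.27 and 8.44 without. At 290 mOsm it was 7.83, 7.76, 7.72 and 7.80 with LPS, against 8.95, 8.87, 8.82 and 8.90 without. Every array with LPS was below every array without it at the same osmolarity, with changes of -0.93 ± 0.05 (adjusted p = 1.26e-11) at 450 mOsm and -1.11 ± 0.05 (adjusted p = 1.14e-12) at 290 mOsm. Farsa, which encodes the alpha subunit of the same enzyme, fell by 0.21 ± 0.05 at 450 mOsm (adjusted p = 0.00171), a call lost under quantile and cyclic loess scaling, and changed by -0.08 ± 0.05 at 290 mOsm (adjusted p = 0.173). Farsb had the larger change of the pair at both osmolarities.

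Another group of enzymes fell at both osmolarities, and the difference between the osmolarities missed the threshold for each of them. Nars (asparagine) changed by -0.78 ± 0.05 at each, with levels of 9.95 to 10.04 in the 450 mOsm arrays with LPS and 10.70 to 10.85 in those without. Sars (serine) changed by -0.74 ± 0.06 at 450 mOsm and -0.77 ± 0.06 at 290 mOsm, and Eprs, a fused enzyme for glutamate and proline, by -0.69 ± 0.05 and -0.62 ± 0.05. Qars (glutamine) changed by -0.58 ± 0.05 at 450 mOsm and -0.73 ± 0.05 at 290 mOsm. Mars (methionine) changed by -0.84 ± 0.07 and -0.58 ± 0.07, and Lars (leucine) by -0.54 ± 0.07 and -0.40 ± 0.07. Tars (threonine) changed by -0.28 ± 0.07 at 450 mOsm and -0.54 ± 0.07 at 290 mOsm. The adjusted p for the difference between the LPS responses was lowest for Tars (0.0651) and Mars (0.0842) among these enzymes.

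Falls were also found in Yars (tyrosine), with -0.51 ± 0.06 at 450 mOsm and -0.46 ± 0.06 at 290 mOsm, in Vars (valine), with -0.56 ± 0.05 and -0.26 ± 0.05, and in Hars (histidine), with -0.25 ± 0.06 and -0.19 ± 0.06. Gars (glycine) changed by -0.40 ± 0.05 at 450 mOsm and -0.12 ± 0.05 (adjusted p = 0.0374) at 290 mOsm, and Cars (cysteine) by -0.15 ± 0.05 (adjusted p = 0.011) and -0.12 ± 0.05 (adjusted p = 0.0301). The call of Gars at 290 mOsm was lost in 13 of 31 alternatives and that of Cars in 11. The fall of Vars at 290 mOsm missed the threshold under quantile (-0.11, adjusted p = 0.0717) and cyclic loess scaling (-0.11, adjusted p = 0.0688). Under cyclic loess so did the falls of Hars at 450 mOsm (-0.11, adjusted p = 0.0835) and 290 mOsm (-0.04, adjusted p = 0.585), and that of Tars at 450 mOsm (-0.12, adjusted p = 0.0879). The size of these falls also depended on the scaling of the arrays. With cyclic loess the median change over all genes at 290 mOsm was 0.02, against -0.11 as deposited, and 11 synthetases fell at 450 mOsm and 10 at 290 mOsm. Under it Cars turned positive at both osmolarities and Gars at 290 mOsm. Wars, Rars and Kars rose at both osmolarities under every scaling run. Iars, Farsb, Eprs, Lars, Mars, Qars, Yars, Nars and Sars fell at both under every scaling run. Over all genes cyclic loess gave 3722 risen and 3660 fallen at 450 mOsm, against 2707 and 4641 with the values as deposited, and 3857 and 3736 at 290 mOsm, against 2702 and 4819.

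The other 3 synthetase genes went the other way. Wars charges tryptophan tRNA and is known as an interferon-induced gene. It stood at 10.75, 10.72, 10.50 and 10.69 with LPS at 450 mOsm, against 9.63, 9.70, 9.32 and 9.63 without, a change of 1.09 ± 0.08 (adjusted p = 1.43e-09, 2.13-fold). At 290 mOsm it was 10.68, 10.34, 10.45 and 10.45 with LPS, against 9.09, 8.96, 9.13 and 9.11 without, a change of 1.41 ± 0.08 (adjusted p = 4.15e-11, 2.66-fold). Groups with and without LPS were far apart at both osmolarities. Rars (arginine) changed by 0.90 ± 0.05 at 450 mOsm and 0.78 ± 0.05 at 290 mOsm, with levels of 11.02 to 11.11 in the 450 mOsm arrays with LPS and 10.11 to 10.25 in those without. Kars (lysine) changed by 0.69 ± 0.05 at 450 mOsm and 0.70 ± 0.05 at 290 mOsm, with levels of 9.15 to 9.24 with LPS and 8.42 to 8.57 without at 450 mOsm. Wars and Rars are class I enzymes and Kars is class II, so of the 10 class I enzymes 8 fell and 2 rose with LPS at each osmolarity. Of the 8 class II enzymes 7 fell and 1 rose at 450 mOsm, and 6 fell and 1 rose at 290 mOsm. Over all genes 45.3% fell and 26.4% rose at 450 mOsm, and 47.1% and 26.4% at 290 mOsm.

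**Figure D2:**
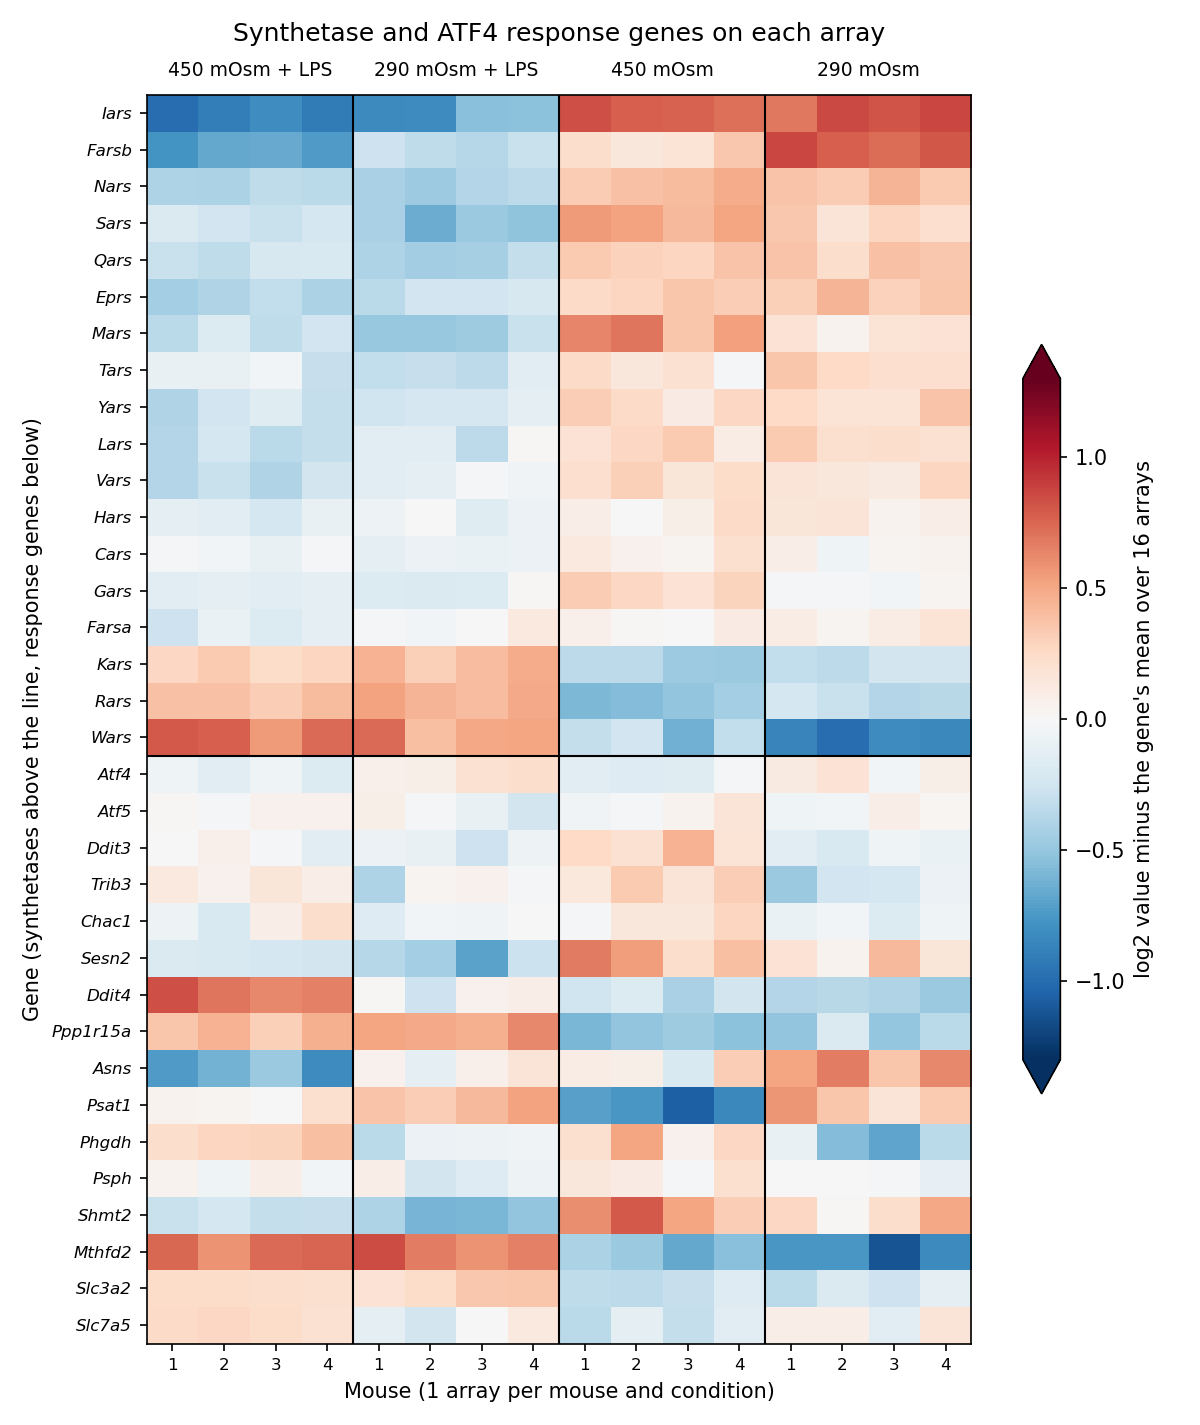
Each row is a gene and each column an array, in blocks of 4 mice by condition, and colour is the log2 value minus the gene's mean over the 16 arrays (red above, blue below). Most synthetase rows are blue in both LPS blocks and red in both blocks without LPS, Wars, Rars and Kars run the other way, and Psat1 is lowest in the block at 450 mOsm without LPS.

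Salt moved fewer synthetases. With LPS, 2 of the 18 rose and 4 fell at 450 mOsm, and without LPS 4 rose and 2 fell. Median changes of the synthetases were -0.07 with LPS and -0.01 without, beside 0.00 over all genes in both. Among all 34 genes 6 rose and 7 fell with LPS, where 16.8% of all genes rose and 21.8% fell, and 11 rose and 6 fell without LPS, where 20.6% rose and 23.7% fell. Without mouse 2 the count of risen genes with LPS was 3, against 6 with all mice. Over all genes without LPS, centring each array on its median gave 1335 risen and 3047 fallen, against 2104 and 2426 as deposited.

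Without LPS the 4 synthetases that rose with salt were Wars, Mars, Gars and Sars. Wars gained 0.50 ± 0.08 (adjusted p = 0.000146), with the per-array levels given above. Mars was 8.72, 8.78, 8.44 and 8.62 at 450 mOsm, against 8.27, 8.13, 8.26 and 8.28 at 290 mOsm, a change of 0.41 ± 0.07 (adjusted p = 0.000195). Gars was 10.57, 10.51, 10.43 and 10.53 at 450 mOsm, against 10.23, 10.21, 10.21 and 10.28 at 290 mOsm, a change of 0.28 ± 0.05 (adjusted p = 0.000293). In each of these genes all 450 mOsm arrays lay above all 290 mOsm arrays. Sars changed by 0.25 ± 0.06 without LPS (adjusted p = 0.00174) and by 0.28 ± 0.06 with it (adjusted p = 0.000614), and its groups did not overlap in either case.

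With LPS the values of Wars and Mars, 0.18 ± 0.08 and 0.15 ± 0.07, missed the threshold (adjusted p = 0.0974 for each). Both were higher in 4 of 4 mice, and Wars passed the threshold in 5 of 31 alternatives and Mars in 1. The difference between their salt changes with and without LPS also missed the threshold in limma (adjusted p = 0.0689 for Wars and 0.0842 for Mars). Gars had a change of 0.00 ± 0.05, from 10.10, 10.12, 10.09 and 10.12 at 450 mOsm with LPS against 10.07, 10.05, 10.07 and 10.25 at 290 mOsm with LPS. Mouse 4 alone was high in the 290 mOsm group. Qars rose by 0.14 ± 0.05 with LPS (adjusted p = 0.0355), and that call was lost without any 1 of the 4 mice, with an adjusted p of up to 0.179 when mice or arrays were left out.

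Farsb was the synthetase gene that salt lowered most. It fell by 0.39 ± 0.05 with LPS (adjusted p = 1.04e-05) and by 0.57 ± 0.05 without (adjusted p = 1.3e-07), and its 4 groups did not overlap with each other in the levels given above. Farsa fell by 0.18 ± 0.05 with LPS (adjusted p = 0.011), a call lost without mouse 1 (adjusted p = 0.0791) or mouse 3 (adjusted p = 0.0529), and changed by -0.06 ± 0.05 without LPS. Rars fell by 0.21 ± 0.05 without LPS (adjusted p = 0.00216), while its value with LPS was -0.09 ± 0.05.

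Vars and Iars fell with salt in LPS-treated cells. Vars was 7.36, 7.45, 7.34 and 7.49 at 450 mOsm with LPS, against 7.59, 7.60, 7.72 and 7.69 at 290 mOsm with LPS, a change of -0.24 ± 0.05 (adjusted p = 0.00188) without overlap. Iars changed by -0.22 ± 0.07 (adjusted p = 0.0215), with overlapping groups, and lost its call without mouse 3 or mouse 4, without the 290 mOsm arrays with LPS of either of these or the 450 mOsm array with LPS of mouse 1, and under quantile and cyclic loess scaling. Eprs, at -0.12 ± 0.05, missed the threshold (adjusted p = 0.0561) and passed it in 8 of 31 alternatives. Mouse as a fixed or random block was among these (adjusted p = 0.0442 with the fixed one). The remaining 7 synthetases, Cars, Lars, Yars, Hars, Kars, Nars and Tars, had salt differences between -0.16 and 0.14 with no call in the main fit. With LPS, Tars passed the threshold in 5 of 31 alternatives (0.24, adjusted p = 0.00443 in limma without mouse 4), Kars in 5 and Lars in 4. Without LPS, Kars passed it in 3.

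**Figure D3:**
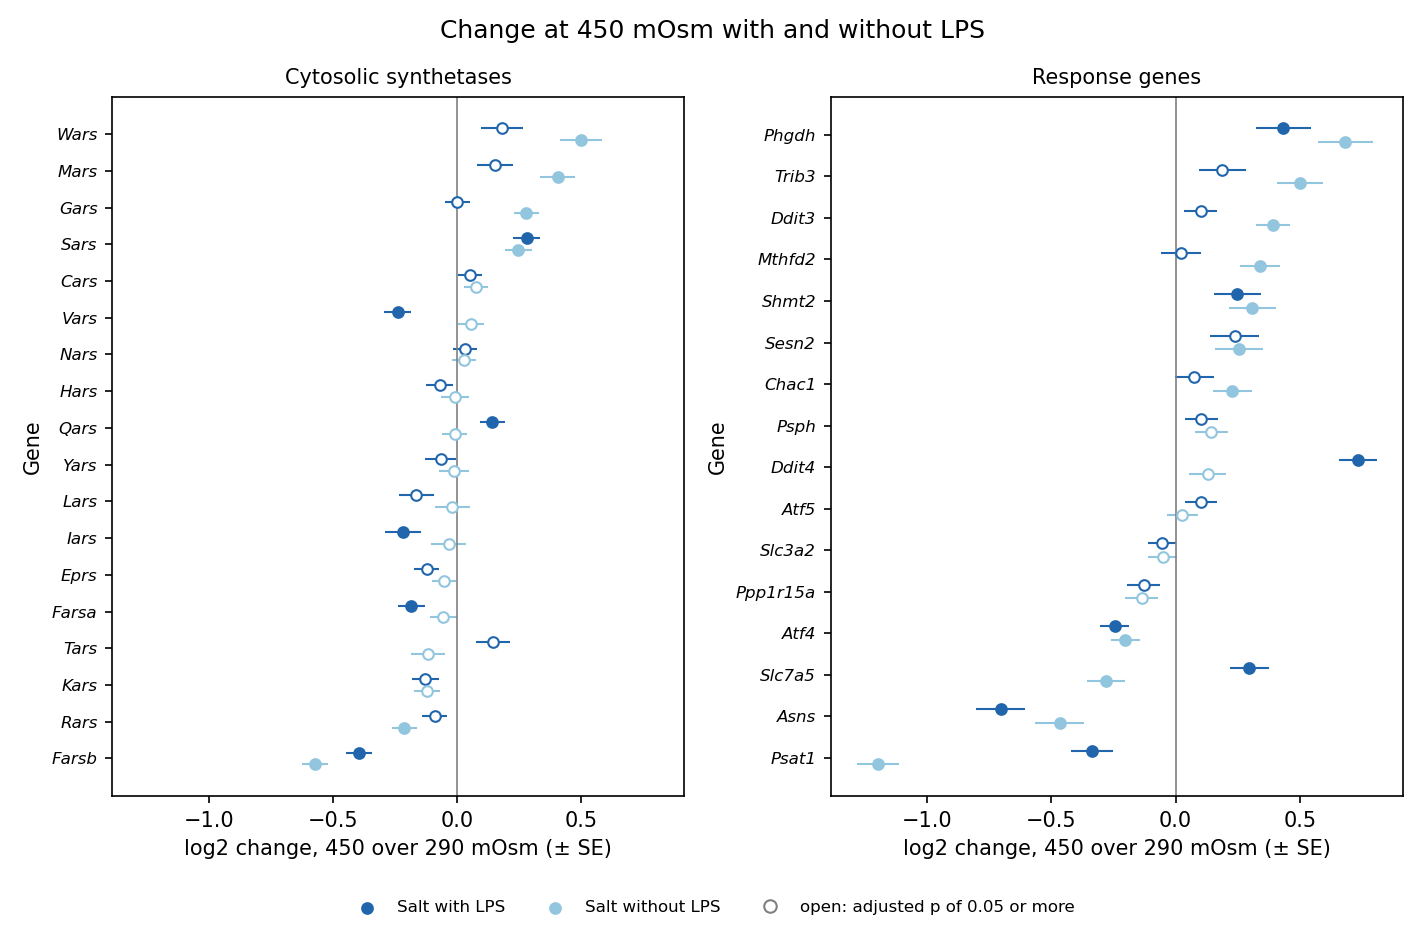
log2 change at 450 over 290 mOsm (x axis) for each gene (y axis), with LPS (dark points) and without LPS (light points), with the cytosolic synthetases on the left and the response genes on the right. Bars are standard errors and open points have an adjusted p of 0.05 or more. Psat1, Ddit4 and Slc7a5 have the widest gaps between their dark and light points.

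Among the 16 response genes salt raised 4 and lowered 3 with LPS, and raised 7 and lowered 4 without LPS, beside 16.8% and 21.8% of all genes with LPS and 20.6% and 23.7% without. Their median change was 0.10 with LPS and 0.14 without. Atf4 itself fell with salt. It was 8.79, 8.71, 8.79 and 8.67 at 450 mOsm with LPS, against 8.91, 8.92, 9.04 and 9.07 at 290 mOsm with LPS, a change of -0.24 ± 0.06 (adjusted p = 0.00287) without overlap. Without LPS it was 8.71, 8.68, 8.68 and 8.83 at 450 mOsm, against 8.96, 9.03, 8.81 and 8.92 at 290 mOsm, and these groups overlapped through mouse 4 at 450 mOsm and mouse 3 at 290 mOsm. That change was -0.20 ± 0.06 (adjusted p = 0.00984), and the call was lost without mouse 1 (adjusted p = 0.0601) or mouse 2 (adjusted p = 0.109). LPS changed Atf4 by 0.01 ± 0.06 at 450 mOsm and 0.06 ± 0.06 at 290 mOsm (adjusted p = 0.847 and 0.393), and under cyclic loess both values passed the threshold. Atf5, a related factor also controlled at translation, passed the threshold in no comparison, with changes between -0.08 and 0.10, and its value of -0.01 with LPS at 450 mOsm was 0.15 under cyclic loess (adjusted p = 0.0457).

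Ddit3, which encodes the stress factor CHOP, rose with salt without LPS. With LPS it was 8.16, 8.23, 8.16 and 8.02 at 450 mOsm, against 8.09, 8.07, 7.90 and 8.10 at 290 mOsm, a change of 0.10 ± 0.07 (adjusted p = 0.247). Without LPS it was 8.43, 8.36, 8.62 and 8.34 at 450 mOsm, against 8.03, 7.97, 8.11 and 8.08 at 290 mOsm, a change of 0.39 ± 0.07 (adjusted p = 0.000156). The groups overlapped with LPS and were separate without it. With LPS, Ddit3 fell by 0.30 ± 0.07 at 450 mOsm (adjusted p = 0.000583) and changed by -0.01 ± 0.07 at 290 mOsm, a value that was 0.16 under cyclic loess (adjusted p = 0.0267), where the fall at 450 mOsm missed the threshold (adjusted p = 0.0505).

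Trib3, a pseudokinase induced by ATF4 and CHOP, was 7.23, 7.44, 7.26 and 7.42 at 450 mOsm, against 6.62, 6.84, 6.87 and 7.02 at 290 mOsm without LPS. All arrays at 450 mOsm were above those at 290 mOsm, with a change of 0.50 ± 0.09 (adjusted p = 0.000363). With LPS its change was 0.19 ± 0.09 (adjusted p = 0.12), where mouse 1 at 290 mOsm, at 6.70, lay below the other 3 at 7.07 to 7.15. Its LPS change at 290 mOsm, 0.17 ± 0.09 (adjusted p = 0.1), passed the threshold in 6 of 30 alternatives. Among these were mouse as a fixed block (adjusted p = 0.0489), quantile and cyclic loess scaling, and leaving out mouse 1. In limma without the array of mouse 1 at 290 mOsm with LPS, the adjusted p was 0.00402. Chac1, which breaks down glutathione, rose by 0.23 ± 0.08 without LPS (adjusted p = 0.0268). Its call was lost with median centring, without mouse 3 or mouse 4, and without the 450 mOsm array of mouse 2 or 4 or the 290 mOsm array of mouse 1 or 3, with an adjusted p of up to 0.128.

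Sesn2 and Ddit4 both restrain the growth kinase mTORC1. Sesn2 was 8.19, 8.18, 8.14 and 8.14 with LPS at 450 mOsm, against 9.05, 8.91, 8.60 and 8.76 without, and it changed with LPS by -0.67 ± 0.10 there (adjusted p = 6.01e-06) and by -0.65 ± 0.10 at 290 mOsm (adjusted p = 8.33e-06). Its rise of 0.26 ± 0.10 with salt without LPS (adjusted p = 0.0413) was lost without the filter, with median centring, with only the 2 groups fitted, without mouse 1, 2 or 4, and without the 450 mOsm array of mouse 1 or 2 or the 290 mOsm array of mouse 1, 2 or 4, with adjusted p-values from 0.00091 to 0.282 over all settings. With LPS its salt change was 0.24 ± 0.10 (adjusted p = 0.0625), without overlap and in the same direction in 4 of 4 mice, and it passed the threshold in 8 of 31 alternatives. Ddit4 was 8.11, 7.97, 7.89 and 7.93 at 450 mOsm with LPS, against 7.29, 7.00, 7.33 and 7.35 at 290 mOsm with LPS, 7.01, 7.10, 6.85 and 7.03 at 450 mOsm without LPS, and 6.89, 6.91, 6.87 and 6.79 at 290 mOsm without LPS. The arrays at 450 mOsm with LPS lay above the other 12. Salt raised Ddit4 by 0.73 ± 0.07 with LPS (adjusted p = 5.2e-07) and changed it by 0.13 ± 0.07 without (adjusted p = 0.167), and LPS raised it at both osmolarities, by 0.98 ± 0.07 at 450 mOsm and 0.38 ± 0.07 at 290 mOsm.

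Ppp1r15a, the phosphatase subunit that reverses eIF2 phosphorylation, was 7.92, 8.02, 7.88 and 8.03 with LPS at 450 mOsm, against 6.98, 7.05, 7.11 and 7.03 without. At both osmolarities all arrays with LPS lay above all arrays without it. LPS raised it by 0.92 ± 0.07 at 450 mOsm (adjusted p = 6.19e-10) and by 0.91 ± 0.07 at 290 mOsm (adjusted p = 7.67e-10), and its salt changes, -0.13 ± 0.07 with LPS and -0.14 ± 0.07 without, missed the threshold.

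**Figure D4:**
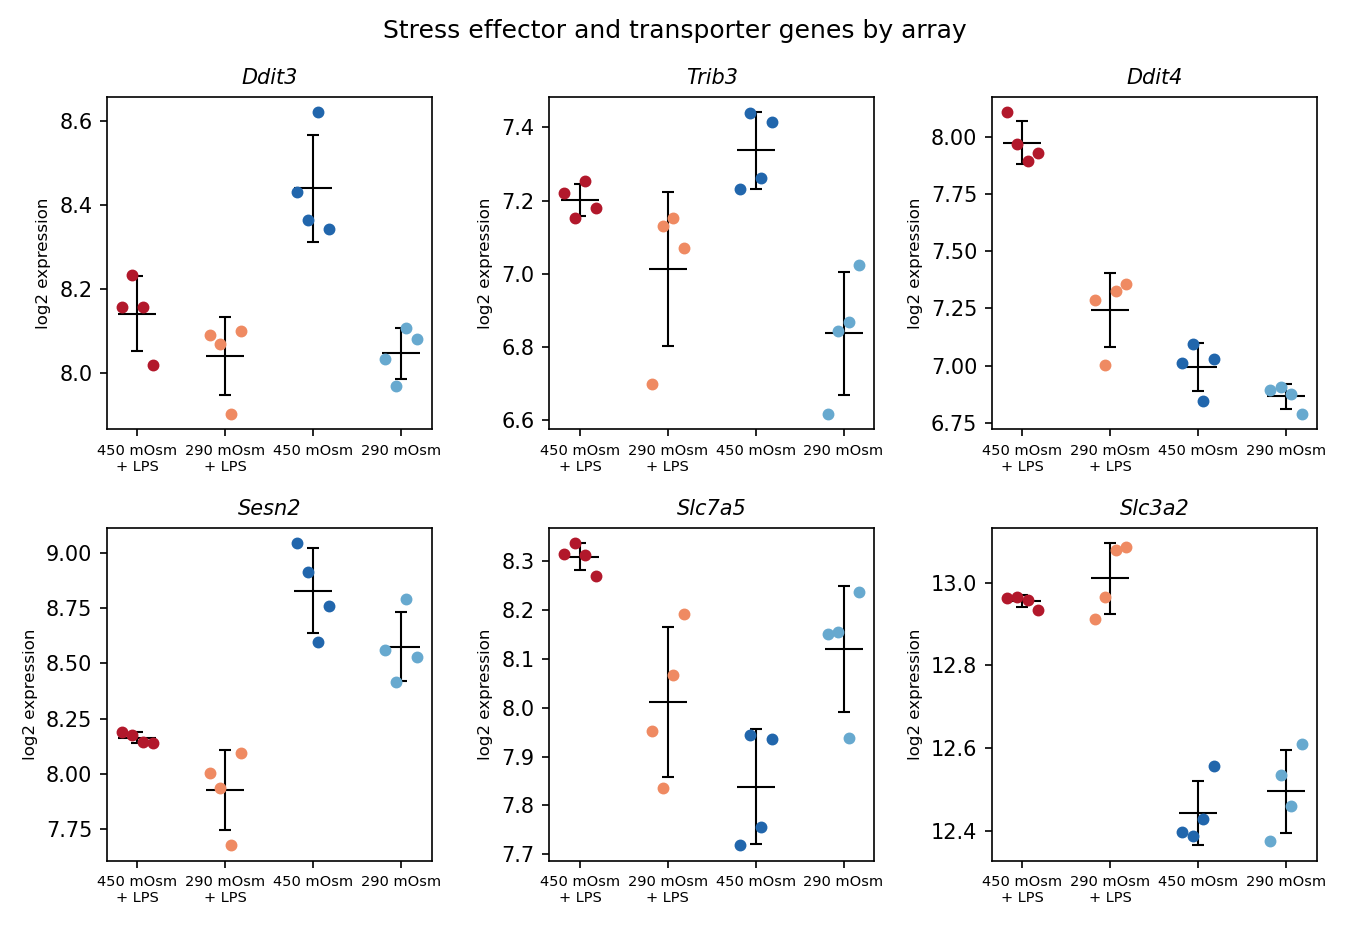
log2 expression (y axis) of 6 genes on each array, by condition (x axis), with the mean and SD of the 4 mice. Ddit3 and Trib3 are highest at 450 mOsm without LPS, Ddit4 and Slc7a5 at 450 mOsm with LPS, and Sesn2 is lower in both LPS groups than in both groups without it.

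Serine synthesis runs through Phgdh, Psat1 and Psph, and these 3 genes did not move together. Psat1, the transaminase of the middle step, was 7.84, 7.83, 7.80 and 8.01 at 450 mOsm with LPS, against 8.17, 8.12, 8.22 and 8.32 at 290 mOsm with LPS, a change of -0.34 ± 0.08 (adjusted p = 0.00409). Without LPS it was 7.09, 7.04, 6.74 and 6.96 at 450 mOsm, against 8.37, 8.16, 7.97 and 8.14 at 290 mOsm, a change of -1.20 ± 0.08 (adjusted p = 5.17e-09, 2.30-fold lower). The 4 arrays at 450 mOsm without LPS were lowest, below the other 12. Their levels lay near the filter level of 6.83, with that of mouse 3 below it. LPS raised Psat1 by 0.91 ± 0.08 at 450 mOsm (adjusted p = 1.75e-08) and changed it by 0.05 ± 0.08 at 290 mOsm (adjusted p = 0.618), which passed the threshold under quantile and cyclic loess scaling.

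Phgdh, the first enzyme, moved the other way with salt. With LPS it was 7.73, 7.78, 7.79 and 7.89 at 450 mOsm, against 7.15, 7.42, 7.43 and 7.45 at 290 mOsm, a change of 0.43 ± 0.11 (adjusted p = 0.00475). Without LPS it was 7.70, 8.01, 7.55 and 7.77 at 450 mOsm, against 7.40, 6.93, 6.82 and 7.15 at 290 mOsm, a change of 0.68 ± 0.11 (adjusted p = 9.78e-05). The groups did not overlap in either pair. Its LPS change at 290 mOsm, 0.29 ± 0.11 (adjusted p = 0.0268), was lost without mouse 2, 3 or 4 and without their single 290 mOsm arrays with LPS or those without LPS of mouse 2 or 3, with an adjusted p of up to 0.198. Psph, the last enzyme, passed in no comparison, with salt changes of 0.10 ± 0.07 with LPS and 0.14 ± 0.07 without.

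Shmt2 and Mthfd2 are mitochondrial one-carbon enzymes, and LPS moved them in opposite directions. Mthfd2 was 10.46, 10.29, 10.45 and 10.47 with LPS at 450 mOsm, against 9.29, 9.22, 9.04 and 9.17 without, a change of 1.23 ± 0.08 (adjusted p = 1.2e-10, 2.35-fold higher), and its change at 290 mOsm was 1.55 ± 0.08 (adjusted p = 4.97e-12, 2.93-fold higher). Shmt2 was 7.05, 7.11, 7.03 and 7.04 with LPS at 450 mOsm, against 7.95, 8.13, 7.86 and 7.66 without, a change of -0.84 ± 0.09 (adjusted p = 2.21e-07), and its change at 290 mOsm was -0.78 ± 0.09 (adjusted p = 6e-07). The LPS groups did not overlap with those without LPS in either gene. With salt alone, without LPS, Mthfd2 rose by 0.34 ± 0.08 (adjusted p = 0.00264) and Shmt2 by 0.31 ± 0.09 (adjusted p = 0.0137), the second lost with median centring, without mouse 1, 2 or 3, and without the 450 mOsm or the 290 mOsm array of mouse 2. With LPS, Mthfd2 changed by 0.02 ± 0.08, and the rise of Shmt2 by 0.25 ± 0.09 (adjusted p = 0.0465) was lost in 18 of 31 alternatives, with mouse as a fixed block among them (adjusted p = 0.06).

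Asns, asparagine synthetase, fell with salt and with LPS. It was 6.82, 6.94, 7.08 and 6.74 at 450 mOsm with LPS, against 7.61, 7.44, 7.62 and 7.72 at 290 mOsm with LPS, a change of -0.70 ± 0.10 (adjusted p = 2.08e-05). Without LPS it was 7.65, 7.63, 7.36 and 7.88 at 450 mOsm, against 8.07, 8.22, 7.92 and 8.18 at 290 mOsm, a change of -0.47 ± 0.10 (adjusted p = 0.00111). The groups did not overlap in either pair. The LPS changes were -0.74 ± 0.10 at 450 mOsm and -0.50 ± 0.10 at 290 mOsm, and the arrays given both salt and LPS were the lowest.

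**Figure D5:**
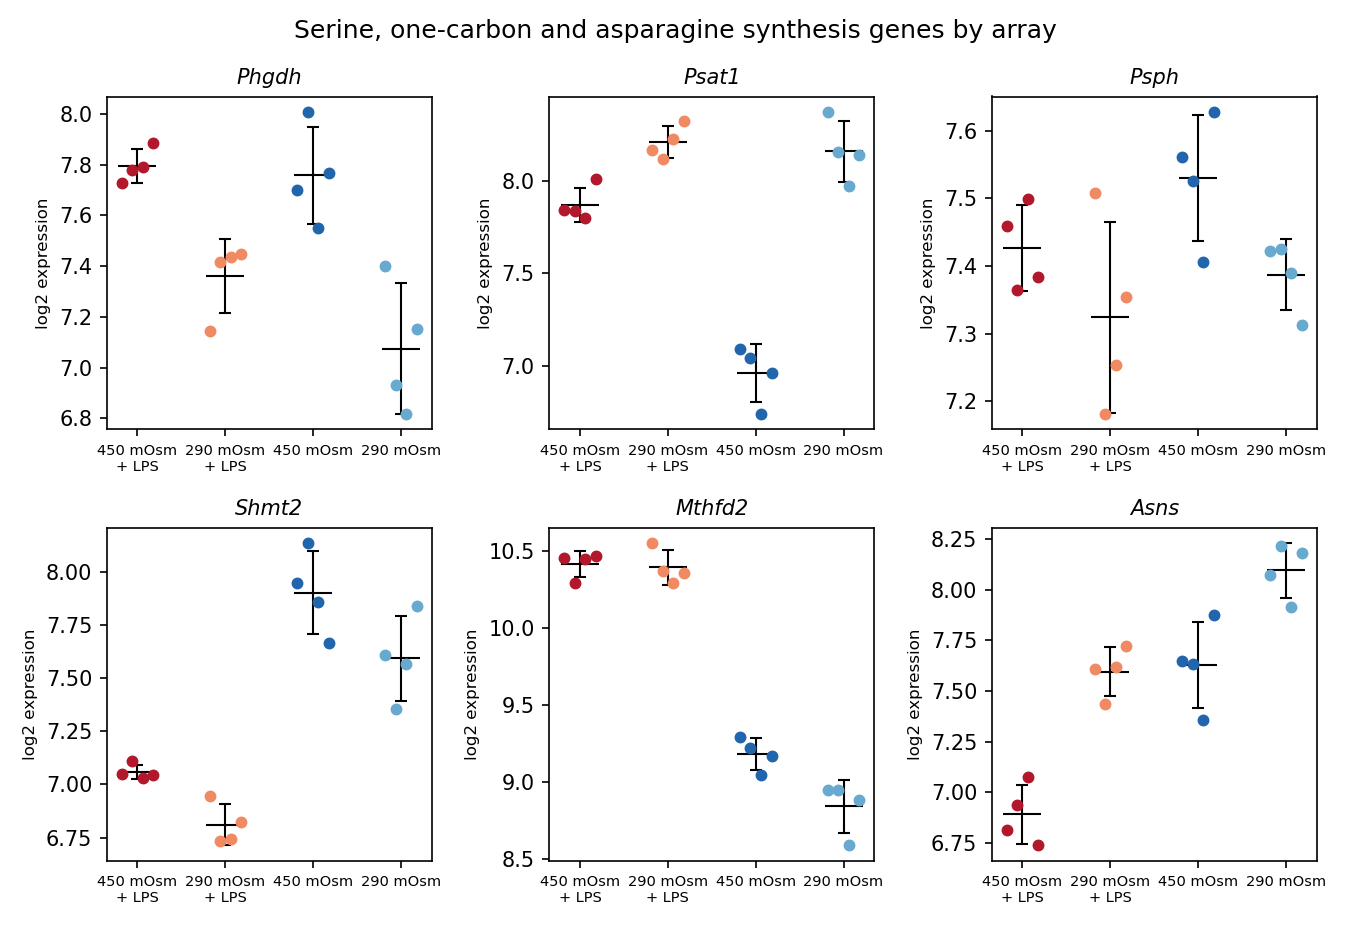
log2 expression (y axis) of the serine, one-carbon and asparagine synthesis genes on each array, by condition (x axis), with the mean and SD of the 4 mice. Psat1 is lowest and Phgdh high at 450 mOsm without LPS, Mthfd2 is high and Shmt2 low in both LPS groups, and Asns is lowest at 450 mOsm with LPS.

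Slc3a2 and Slc7a5 form the heterodimer that imports leucine and other large neutral amino acids. Slc7a5, the transport subunit, was 8.32, 8.34, 8.31 and 8.27 at 450 mOsm with LPS, against 7.95, 7.84, 8.07 and 8.19 at 290 mOsm with LPS, a change of 0.30 ± 0.08 (adjusted p = 0.0055). Without LPS it was 7.72, 7.94, 7.76 and 7.94 at 450 mOsm, against 8.15, 8.16, 7.94 and 8.24 at 290 mOsm, a change of -0.28 ± 0.08 (adjusted p = 0.00744). The groups were separate with LPS, and without LPS mouse 3 at 290 mOsm lay within the range of the 450 mOsm arrays. The rise was lost without mouse 2 (adjusted p = 0.0621) and the fall without mouse 1 (adjusted p = 0.0736). Slc3a2, the heavy chain that many transporters share, had salt changes of -0.06 ± 0.06 with LPS and -0.05 ± 0.06 without, and LPS raised it by 0.51 ± 0.06 at 450 mOsm and 0.52 ± 0.06 at 290 mOsm.

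Whether the salt response differed with and without LPS was tested as an interaction, the salt change with LPS minus that without. Of the 34 genes 3 had a higher and 3 a lower value at an adjusted p under 0.05, where 10.7% of all genes were higher and 10.4% lower. The higher ones were Psat1 (0.86 ± 0.12, adjusted p = 4.54e-05), Ddit4 (0.60 ± 0.11, adjusted p = 0.00041) and Slc7a5 (0.58 ± 0.11, adjusted p = 0.000826), each in the same direction in 4 of 4 mice. These 3 calls held in each setting run that gave them a value. The lower ones were Vars (-0.30 ± 0.08, adjusted p = 0.00919), Gars (-0.28 ± 0.07, adjusted p = 0.00906) and Ddit3 (-0.29 ± 0.09, adjusted p = 0.0343), also in 4 of 4 mice.

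Leaving out a single mouse reduced the count of lower calls over all genes tested, and in this list calls were lost and some were gained. Over all genes 1064 were lower with all mice, and 697, 725, 955 and 820 without mouse 1, 2, 3 and 4. The value of Vars was -0.30, -0.29 and -0.25 without mouse 1, 2 and 3, and that of Gars -0.27 and -0.30 without mouse 1 and 2. Vars lost its call without mouse 1, 2 or 3 (adjusted p = 0.0523, 0.0635 and 0.0577), Gars without mouse 1 (0.0623) or mouse 2 (0.0518), and Ddit3 in 14 of 30 alternatives. Without mouse 1 none of these 3 was called and Trib3 was (-0.38, adjusted p = 0.0148), and without mouse 2 the count of lower genes of the list was 0. The count without mouse 3 was 4, as Vars was lost and Wars (-0.38, adjusted p = 0.0316) and Mthfd2 (-0.32, adjusted p = 0.0366) joined Gars and Ddit3. Without mouse 4 it was 2, Vars and Gars. Without the array of mouse 3 at 450 mOsm without LPS it was 5, which were Vars, Gars, Mars, Wars and Mthfd2. At an unadjusted p under 0.05 in limma, 7 genes were lower with all mice, 6 without mouse 1, 5 without mouse 2, 8 without mouse 3 and 4 without mouse 4. With mouse as a fixed block the count was 6, since Wars (-0.32, adjusted p = 0.0461 with the block and 0.0689 without), Trib3 (-0.31, 0.0489 and 0.108) and Mthfd2 (-0.32, 0.0212 and 0.0559) joined. With mouse as a random block it was 4, with Mthfd2 alone added (adjusted p = 0.039).

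The related genes were read from further lists. Of 20 mitochondrial synthetases 14 were tested. LPS lowered 13 at 450 mOsm and 13 at 290 mOsm, where 45.3% and 47.1% of all genes fell. Salt lowered 2, Rars2 (-0.23 with LPS and -0.30 without) and Yars2 (-0.35 and -0.21), where 21.8% of all genes fell with LPS and 23.7% without. LPS lowered 2 of the 4 scaffold and tRNA export genes at 450 mOsm and all 4 at 290 mOsm. Their interaction was positive in all 4 and called higher in 3, where 10.7% of all genes were higher. Among them Eef1e1, a part of the multisynthetase complex, changed with salt by -0.40 with LPS and -0.97 without, both past the threshold. Its interaction of 0.57 was also called. Aimp1 changed by -0.28 and Xpot by -0.20 with salt without LPS, both called, and Aimp2 rose by 0.19 with salt with LPS.

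Over all genes salt raised 16.8% and lowered 21.8% with LPS, and raised 20.6% and lowered 23.7% without. Of the 13 tested genes for eIF2, its kinases and its exchange factor, salt raised 1 and lowered 3 with LPS, and raised 3 and lowered 3 without. Eif2ak2, which encodes PKR and is known as an interferon-induced gene, rose with LPS by 1.60 at 450 mOsm and by 2.15 at 290 mOsm. With salt it changed by -0.31 with LPS and 0.25 without, both called, and the interaction of -0.55 was called. Eif2ak1, which encodes HRI, rose with salt by 0.19 with LPS and 0.22 without. Eif2b2, a subunit of the exchange factor, had salt differences of 0.14 with LPS and 0.28 without, called without LPS. Eif2s2, which encodes the beta subunit of eIF2, changed by -0.23 with LPS and -0.41 without, and Eif2s3x, which encodes the gamma subunit, by -0.23 and -0.24, all called. Impact, a GCN2 inhibitor, had salt differences of 0.01 with LPS and -0.25 without, called without LPS. Of 15 other genes known to respond to ATF4, salt raised 5 and lowered 1 with LPS, and raised 6 and lowered 3 without. Among them Nupr1, a stress-induced chromatin protein, rose by 0.46 with LPS and by 1.08 without, Got1, the cytosolic aspartate aminotransferase, rose by 0.82 and 0.85, and Atf3 changed by 0.03 and -0.40. Herpud1, an endoplasmic reticulum degradation factor, had salt differences of -0.19 with LPS and 0.57 without, called without LPS, with a called interaction of -0.76. Eif4ebp1, a translation repressor, had differences of 0.40 with LPS and -0.04 without, called with LPS, with a called interaction of 0.44. Sesn1 changed by -0.47 with LPS and -0.85 without, both called, and Gpt2, a mitochondrial alanine aminotransferase, had differences of -0.14 and -0.27, called without LPS.

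Other amino acid transporters were raised by salt in 7 of 11 cases with LPS, and 4 rose and 4 fell without LPS. Beside them, 16.8% of all genes rose and 21.8% fell with salt with LPS, and 20.6% and 23.7% without. Slc6a9, the glycine transporter GlyT1, changed by 1.04 with LPS and 1.22 without, and Slc38a2, the transporter known to respond to hypertonic medium, by 0.39 and 0.90. Slc7a1, for arginine and lysine, changed by 0.25 with LPS and -0.31 without, with a called interaction of 0.56. Slc7a6 rose by 0.52 with LPS and 0.60 without. Slc38a1 had salt differences of 0.42 with LPS and -0.02 without, called with LPS, with a called interaction of 0.44. Slc7a11, the cystine transporter, had differences of -0.26 with LPS and -0.52 without, and Slc38a9, a lysosomal amino acid sensor, of -0.11 and -0.35, each called without LPS. Of 14 endoplasmic reticulum stress genes outside the ATF4 branch, LPS lowered 13 at each osmolarity, beside 45.3% of all genes at 450 mOsm and 47.1% at 290 mOsm. Salt raised 3 and lowered 2 of them with LPS, and raised 2 without. Xbp1 changed by 0.35 with LPS and 0.39 without, and Ern1 by 0.37 and 0.20. Creld2 had differences of 0.27 with LPS and -0.14 without, Sdf2l1 of -0.41 and -0.10, and Pdia6 of -0.26 and -0.15, each called with LPS, with called interactions of 0.41 for Creld2 and -0.31 for Sdf2l1.

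The group in which each gene had its highest mean is given as a description. Of the 18 synthetases, 1 had its highest mean at 450 mOsm with LPS, 2 at 290 mOsm with LPS, 6 at 450 mOsm without LPS and 9 at 290 mOsm without LPS. Of the 16 response genes, 4 were highest at 450 mOsm with LPS, 4 at 290 mOsm with LPS, 7 at 450 mOsm without LPS and 1, Asns, at 290 mOsm without LPS. Over all 10236 genes the shares highest in these groups were 21.7%, 17.8%, 28.6% and 31.9% in the same order, and no test was made. After the group means were taken out, the correlation between genes over the 16 arrays had a median of 0.162 over 153 pairs of synthetases, 0.129 over 120 pairs of response genes and 0.141 over 288 mixed pairs, beside 0.034 over all genes tested. The most alike pairs were Wars with Sars (0.776), Mars with Gars (0.746), Mars with Kars (0.741), Psat1 with Phgdh (0.740) and Rars with Hars (0.739). Pairs of synthetases ran from -0.809 to 0.776, pairs of response genes from -0.563 to 0.740 and mixed pairs from -0.675 to 0.712. All pairs share the same 16 arrays and the scaling of each, and the values are descriptions.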

How the data were processed

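RNA was hybridised to Affymetrix Mouse Gene 1.0 ST arrays, 1 per culture, 16 in all. The deposited table holds log2 expression per probe set, which the authors computed by RMA in the oligo package, per the submitters' processing notes. RMA subtracts background, normalizes probes across arrays and combines them, so it can hide a shift shared by most transcripts and compresses dim signals. The arrays of the deposited table do not share 1 distribution, since their medians ran from 6.78 to 6.93. The package version and the build were not given in the sources used here. No read depth exists for arrays, and their number limits the precision.

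Of 22549 probe sets, 20646 had 1 gene symbol in the platform annotation, 551 several and 1352 none. The filter asked for 4 or more arrays above the median of all values, 6.83, and each gene took its kept probe set with the highest mean. Some group means lay near this level. Examples without LPS were Psat1 at 450 mOsm (6.96) and Trib3 (6.84) and Ddit4 (6.87) at 290 mOsm. With LPS they were Shmt2 at 290 mOsm (6.81) and Asns at 450 mOsm (6.89). The 10236 genes were fitted with limma 3.58.1 in R 4.3.3, with 4 group means and no block, on 12 residual degrees of freedom. The contrasts were salt with and without LPS, LPS at each osmolarity and their interaction, two-sided, with Benjamini-Hochberg adjustment. The script was tested on simulated data. Figures were drawn with matplotlib 3.10.9.

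The labels give the same mouse number in every group, so the groups pair by mouse. Deviations from group means of same-numbered arrays correlated with r from -0.146 to 0.433 (median 0.0953 over 24 pairs, 11 over 0.1), and those of other mice with a median of -0.0351. No source used here says whether cultures of 1 mouse were separate before salt was added. The main fit did not use the pairing. Its p-values rest on the spread of arrays within groups, pooled over the 4 groups and moderated over genes. That spread holds mouse, culture and array variation together, and covers only these 4 mice. Scaling, the filter, the probe set rule, the variance model, array weights, mouse as a block and leaving out mice or arrays were tried as alternatives. All members of the list are named, and from the other lists up to 3 called genes per direction with the largest salt change. From the marker lists, counts and the marker with the largest salt change are given. The members, lists, motifs and alternatives were chosen with earlier results of these data known.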

Additional observations from a re-analysis of the deposited data

Results flagged for a closer look

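In 7 of 136 groups of 4 arrays, 1 array stood apart from the other 3, and chance gives about 1 in 20 groups. Mars was 7.80 in mouse 4 at 290 mOsm with LPS, against 7.59 to 7.63 in the other mice, and 8.13 in mouse 2 at 290 mOsm without LPS, against 8.26 to 8.28. Gars was 10.25 in mouse 4 at 290 mOsm with LPS, against 10.05 to 10.07. Atf4 was 8.83 in mouse 4 at 450 mOsm without LPS, against 8.68 to 8.71. Ddit3 was 7.90 in mouse 3 at 290 mOsm with LPS, against 8.07 to 8.10, and Phgdh was 7.15 in mouse 1 of that group, against 7.42 to 7.45. Mthfd2 was 10.29 in mouse 2 at 450 mOsm with LPS, against 10.45 to 10.47.

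The salt response differed with and without LPS, by the interaction test, for 6 genes. The difference was 0.86 for Psat1, 0.60 for Ddit4, 0.58 for Slc7a5, -0.30 for Vars, -0.28 for Gars and -0.29 for Ddit3 on the log2 scale. In Slc7a5 the salt change was positive with LPS and negative without, each past the threshold. The array of mouse 4 that stood apart for Gars lies in one of the groups its interaction uses, and so does that of mouse 3 for Ddit3. Without those arrays the differences were -0.23 for Gars (adjusted p = 0.0163) and -0.34 for Ddit3 (adjusted p = 0.0155).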

How the results depend on the processing

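Under 11 other settings of scaling, filter, probe sets, variance, weights, groups fitted and mouse block, 1811 member comparisons were made. Of these, 1732 kept their side of the threshold, and their direction where called. Another 30 lost a call, 43 gained one and 6 reversed. Leaving out a mouse lost 41 and gained 11 of 680, and leaving out an array lost 55 and gained 31 of 2720. Changes of sign in values with no call numbered 143 over all these comparisons. They are counted among those that kept their side of the threshold. The count of members lower in the interaction, 3, was 6 with quantile normalization, 6 with array weights and 6 with mouse as a fixed block. Mouse as a fixed block changed 6 calls, all given beside their results, and no other. Leaving out mice or arrays gave 8 to 12 higher and 4 to 7 lower members for salt without LPS, 3 to 8 and 6 to 8 for salt with LPS, 9 to 9 and 18 to 20 for LPS at 450 mOsm, 7 to 9 and 15 to 17 for LPS at 290 mOsm, and 3 to 4 and 0 to 5 for the interaction. Fitting only the groups compared gives no value for the interaction. With cyclic loess these values turned positive: Cars with LPS at 450 mOsm (0.0090) and at 290 mOsm (0.0489, and 0.0108 with quantile normalization), Gars with LPS at 290 mOsm (0.0150), Ddit3 with LPS at 290 mOsm (0.16), Atf5 with LPS at 450 mOsm (0.15), and Aimp1 with LPS at 450 mOsm (0.13). With the mean of its probe sets, Eif2s2 with LPS at 450 mOsm was -0.0008. Cyclic loess gave 9 response genes higher with LPS at 290 mOsm, against 5, and median centring gave 4 higher with salt without LPS, against 7. The causes were not tested. With 4 mice per group, differences near 0.2, and some smaller and larger ones, passed or missed the threshold with single arrays. Examples were Psph with salt with LPS (0.10), Shmt2 with salt without LPS (0.31) and the interaction of Wars (-0.32).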
